A study of Mus musculus with 2 samples.

Results

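Histone-modifying enzyme genes were followed in lung group 2 innate lymphoid cells (ILC2s), tissue-resident lymphocytes that release type 2 cytokines, by the histone mark H3K4me3 at their transcript starts. The members were the autosomal protein-coding genes of the GENCODE annotation of the mouse genome GRCm38 whose symbols begin with Hdac, Sirt, Kdm, Prmt, Setd or Kat and a number, without Setd1a and Setd1b. The choice used symbols alone and no measured value, and it gave 53 genes of 20807. They comprised 9 zinc-dependent histone deacetylases (Hdac), 7 NAD-dependent sirtuins (Sirt), 15 histone lysine demethylases (Kdm), 8 protein arginine methyltransferases (Prmt), 6 SET domain methyltransferases (Setd) and 8 lysine acetyltransferases (Kat).

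The mark was profiled by CATCH-seq, a carrier-assisted ChIP-seq for small samples, in about 3000 ILC2s per library, sorted from the lungs of 8-week-old wild-type C57BL/6J offspring. The mothers were 6 to 8 weeks old when treatment began. Control mothers were sensitized with PBS and alum on days -21 and -7 before mating with untreated males and given PBS intranasally between gestation days 4 and 17. Asthmatic mothers received 100 µg ovalbumin (OVA) with alum at sensitization and 500 µg OVA per intranasal dose over the same days. Below, F1PBS stands for the cells of offspring of control mothers and F1OVA for those of offspring of asthmatic mothers. Each group was 1 library, and the study's figure legends describe 1 pregnant dam per group, so that no difference between the groups has a replicate check and maternal treatment, litter and library cannot be told apart.

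Acetyltransferases and deacetylases add and remove acetyl groups on lysines, and methyltransferases and demethylases do the same with methyl groups on lysines or arginines. Many of these enzymes also act on proteins other than histones, and most are expressed in nearly every cell type, where they set how open chromatin is and which genes can be transcribed. H3K4me3 itself is laid down around the starts of active and poised genes, often in CpG-rich promoters, and is removed by demethylases of the Kdm5 family.

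The deposited lists held 42126 peaks for F1PBS and 51610 for F1OVA. The lists give no read numbers, so the number of fragments under each summit was worked out from the deposited fold and −log10 p, assuming that no input was used in calling them. The smallest background solved in the same way was 1.83 fragments in F1PBS and 1.57 in F1OVA. Divided by the smallest peak widths, 190 and 156 bp, this gives 96.1 and 100.4 fragments per 10 kb. Of 14 ILC2 marker genes, 11 had a peak within 1000 bp of a start in F1PBS and 8 in F1OVA, where Gata3, Il7r and Il5 had none. Icos, Il13 and Klrg1 had none in either list. Of 46 markers of 7 other lung cell types, 4 and 2 had one, and no marker of B cells, macrophages, neutrophils or fibroblasts did. Such a peak was listed for 52.5% and 43.7% of all autosomal protein-coding genes. A signal below the caller's threshold is not listed, so markers without a peak, Gata3 among them, cannot be said to lack the mark.

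Most of the enzyme genes carried H3K4me3 at a start. A start peak, meaning a peak within 1000 bp of any annotated transcript start of the gene, was listed for 49 of 53 members in F1PBS (92.5%, exact Clopper-Pearson 95% interval 81.8 to 97.9%), where 52.5% of all autosomal protein-coding genes had one. In F1OVA it was listed for 44 of 53 (83.0%, 70.2 to 91.9%), where the share of all genes was 43.7%. These intervals, and all those given for fragments, cover counting error only. The same 44 members had a start peak in both lists, against 43.1% of all genes. No member was marked in F1OVA alone, which held for 0.634% of all genes, and a count of 0 allows a share of up to 6.72% (the upper bound of the exact interval). For 5 members the start peak was listed in F1PBS alone, 9.43% of the members against 9.37% of all genes. Counted among those marked in F1PBS, these were 5 of 49 members and 1949 of 10917 genes. The remaining 4 members had none in either list, against 46.9% of all genes.

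All 8 lysine acetyltransferases and all 6 SET domain genes had a start peak in both lists. Of the 15 demethylases 14 were marked in F1PBS and 13 in F1OVA, of the 9 zinc-dependent deacetylases 8 and 7, and of the 7 sirtuins 6 and 5. The arginine methyltransferases went from 7 of 8 to 5 of 8 (62.5%, exact 95% interval 24.5 to 91.5%). This interval overlaps those of the 8 acetyltransferases (63.1 to 100%) and the 6 SET domain genes (54.1 to 100%). The difference between the classes was not tested. Among the 10000 peaks of highest −log10 p in each list, 35 and 15 members were marked, against 33.8% and 9.82% of all genes. By class these were 8 and 2 acetyltransferases, 2 and 4 SET domain genes, 10 and 5 demethylases, 7 and 3 zinc-dependent deacetylases, 3 and 1 sirtuins and 5 and 0 arginine methyltransferases.

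At 11 members another protein-coding gene starts within 1000 bp, so that the peak cannot be given to the enzyme alone. These were Hdac3 (with Rell2), Kat14 (Pet117), Kdm1b (Tpmt), Kdm4d (Cwc15), Kdm5a (Ccdc77), Prmt7 (Slc7a6os), Setd3 (Ccnk), Sirt1 (Dnajc12), Sirt2 (Nfkbib), Sirt3 (Psmd13) and Sirt6 (Ankrd24), and all 11 were marked in both lists. Of the 42 members with a start of their own, 38 (90.5%) and 33 (78.6%) were marked. The shares of all genes, 52.5% and 43.7%, include genes with shared starts.

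**Figure D1:**
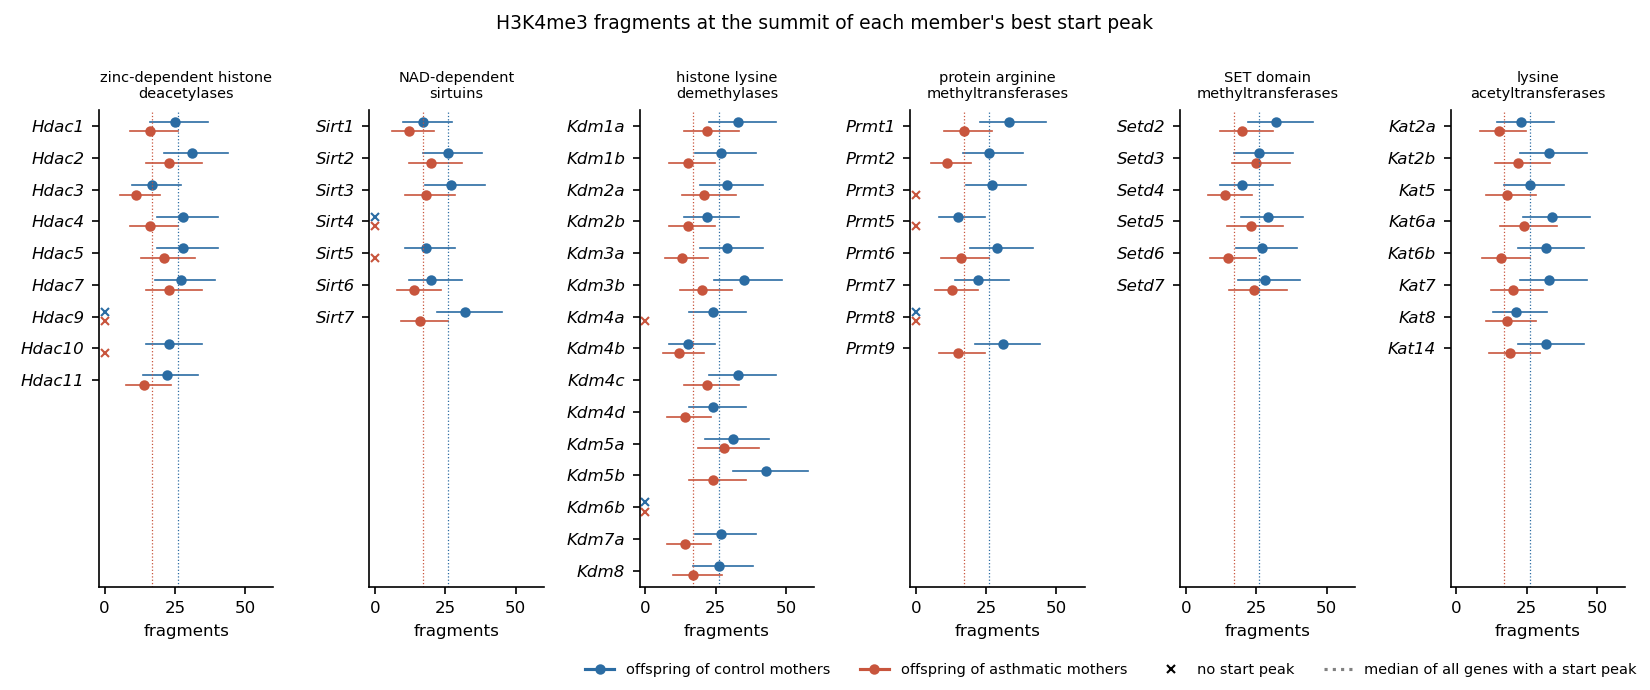
Fragments at the summit of the best start peak of each of the 53 members, 1 panel per enzyme class, with exact Poisson 95% intervals as bars. Blue is offspring of control mothers, red offspring of asthmatic mothers, crosses at the left edge stand for no start peak and not for a measured 0, and dotted lines give the medians of all genes with a start peak, 26 and 17 fragments. In every gene with both points the red point lies to the left of the blue one.

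The depth of the mark at the members was that of genes in general. The best start peak, the one with the highest −log10 q, held a median of 27 fragments over 49 members in F1PBS (order-statistic 95% interval of the median 26 to 29), against 26 over all 10917 marked genes. In F1OVA the median was 17 over 44 members (15 to 20), against 17 over 9100 genes. All 44 members marked in both lists had fewer fragments in F1OVA, as did 97.3% of the 8968 genes marked in both. The median ratio of the members was 0.65 and that of all these genes 0.61, so the lower values ran through the whole list. For all 44 members the exact conditional binomial 95% interval of the ratio took in the ratio of all genes.

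Within each list the genes were also ranked by −log10 q, from 0 for the lowest to 100 for the highest start peak. The members' median rank was 59.0 in F1PBS (95% interval 43.7 to 68.4) and 60.1 in F1OVA (45.5 to 76.1). No member reached the 90th percentile in F1PBS, and 8 of 44 did in F1OVA. Most of the enzyme genes were thus marked, at a middling median rank.

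The members without a listed start peak in one or both lists came from 4 of the 6 classes. The 5 members marked in F1PBS alone were Hdac10, a deacetylase that acts on polyamines, Kdm4a, a demethylase of H3K9 and H3K36, Sirt5, a mitochondrial desuccinylase, and the arginine methyltransferases Prmt3, which modifies a protein of the small ribosomal subunit, and Prmt5, the main enzyme for symmetric arginine methylation. Their −log10 q in F1PBS was 6.85 at Prmt5, 8.68 at Sirt5, 9.07 at Kdm4a, 12.3 at Hdac10 and 18.9 at Prmt3. Of all genes whose −log10 q lay within 1 of theirs, 45.6% also had a start peak in F1OVA for Prmt5, 63.0% for Sirt5, 68.2% for Kdm4a and 86.8% for Hdac10. For Prmt3 the share was 96.2% of 888 genes.

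Prmt3 was thus the member whose mark was strongest in one list and unlisted in the other. On chromosome 7 (chr7:49778346-49858265, plus strand), its single start peak ran over chr7:49778393-49778937, with the summit in noncoding bases of exon 1, 27 fragments (exact Poisson 95% interval 17.8 to 39.3) and a rank of 81.1. In F1OVA the nearest peak lay 18920 bp upstream, at the start of Htatip2. Prmt5 held 15 fragments, Sirt5 18, Hdac10 23 and Kdm4a 24, and the nearest peaks in F1OVA were 14530 bp, 8033 bp, 2540 bp and 3636 bp away. A signal below the threshold of the caller would not be listed, so these starts cannot be said to lack the mark.

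The 4 members without a start peak in either list were Hdac9, a class IIa deacetylase of muscle and neurons, Sirt4, a mitochondrial sirtuin, Prmt8, a membrane-bound arginine methyltransferase of neurons, and Kdm6b, which removes methyl groups from H3K27 and is induced in stimulated immune cells. Prmt8 and Sirt4 held no peak anywhere in the gene, and the nearest peaks lay 186501 bp and 21958 bp from a start. Hdac9 spans 869516 bp and held 14 peaks in F1PBS and 16 in F1OVA, the nearest 8354 bp and 7134 bp from a start and in introns.

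Kdm6b, like Hdac9, held peaks inside the gene. The gene on the minus strand of chromosome 11 (chr11:69398508-69413675) held an intronic peak 3326 bp downstream of the upstream start in F1PBS (chr11:69409849-69410349, −log10 q 4.96). In F1OVA an intronic peak lay 4522 bp downstream of the same start (chr11:69408784-69409153, −log10 q 5.42). At 2000 bp in place of 1000 bp Kdm6b was still not counted.

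Setd4 counted as marked in both lists, but not at the same start. In F1PBS its peak (chr16:93603741-93604031) overlapped an annotated start near the 5′ end of the gene but ended short of the 5′ end itself, with 20 fragments. In F1OVA the counted peak (chr16:93583118-93583303) lay 705 bp from the most downstream annotated start, beyond the 3′ end of the gene, with 14 fragments, and the 75 bases around its summit had 15 exact copies on the assembled chromosomes. Of the 49 and 44 best start peaks of members this was the one whose summit had more than 1 copy. Without it, 43 members were marked in F1OVA, and with distances up to 500 bp Setd4 joined the genes marked in F1PBS alone.

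The sequences at these starts differ in CpG content, and 6 promoters are shown that span the range from marked to unmarked. RefSeq gave 300-base promoters on GRCm38.p6, from 250 bases before to 50 bases after a start, for 62 starts of 44 members. No promoter was matched for Hdac1, Hdac3, Hdac10, Kat6a, Kdm2a, Kdm3b, Kdm4b, Kdm5a and Kdm6b. Every sequence runs 5′ to 3′ along the gene, and capitals mark the CpG dinucleotides.

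Kdm4c, start at the 5′ end, chr4:74242247-74242546, plus strand: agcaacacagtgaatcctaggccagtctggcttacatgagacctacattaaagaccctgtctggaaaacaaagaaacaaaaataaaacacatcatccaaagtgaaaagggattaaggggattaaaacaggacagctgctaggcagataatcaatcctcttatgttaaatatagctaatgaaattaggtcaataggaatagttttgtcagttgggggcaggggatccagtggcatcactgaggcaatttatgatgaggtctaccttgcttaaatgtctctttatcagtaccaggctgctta
Kdm4c, start within the gene, chr4:74251629-74251928, plus strand: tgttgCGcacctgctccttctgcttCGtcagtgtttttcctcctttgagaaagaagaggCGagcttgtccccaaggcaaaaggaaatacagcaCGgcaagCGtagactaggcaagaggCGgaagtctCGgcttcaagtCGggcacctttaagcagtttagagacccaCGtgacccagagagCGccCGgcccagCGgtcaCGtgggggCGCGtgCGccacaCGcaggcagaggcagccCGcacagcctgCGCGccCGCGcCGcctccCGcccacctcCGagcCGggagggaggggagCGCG
Prmt3, chr7:49778108-49778407, plus strand: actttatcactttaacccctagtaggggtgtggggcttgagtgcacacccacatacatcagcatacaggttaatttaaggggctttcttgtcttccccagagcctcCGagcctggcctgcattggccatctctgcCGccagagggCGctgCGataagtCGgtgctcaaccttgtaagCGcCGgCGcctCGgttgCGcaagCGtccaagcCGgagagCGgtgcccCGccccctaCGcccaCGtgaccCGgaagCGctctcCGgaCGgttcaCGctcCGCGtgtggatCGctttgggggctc
Setd7, chr3:51560774-51561073, minus strand: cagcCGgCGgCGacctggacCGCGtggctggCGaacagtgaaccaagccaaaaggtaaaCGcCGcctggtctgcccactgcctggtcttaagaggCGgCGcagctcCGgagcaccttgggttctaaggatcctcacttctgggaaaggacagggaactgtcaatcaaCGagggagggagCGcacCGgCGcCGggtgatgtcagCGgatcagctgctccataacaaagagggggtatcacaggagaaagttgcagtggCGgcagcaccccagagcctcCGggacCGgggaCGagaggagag
Hdac9, start at the 5′ end, chr12:34917046-34917345, minus strand: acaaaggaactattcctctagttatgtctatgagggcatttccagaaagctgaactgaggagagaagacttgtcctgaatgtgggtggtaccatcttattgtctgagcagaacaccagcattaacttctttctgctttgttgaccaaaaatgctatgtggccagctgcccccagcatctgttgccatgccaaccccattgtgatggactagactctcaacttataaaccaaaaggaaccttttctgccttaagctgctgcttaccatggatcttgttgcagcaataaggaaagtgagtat
Prmt8, chr6:127769110-127769409, minus strand: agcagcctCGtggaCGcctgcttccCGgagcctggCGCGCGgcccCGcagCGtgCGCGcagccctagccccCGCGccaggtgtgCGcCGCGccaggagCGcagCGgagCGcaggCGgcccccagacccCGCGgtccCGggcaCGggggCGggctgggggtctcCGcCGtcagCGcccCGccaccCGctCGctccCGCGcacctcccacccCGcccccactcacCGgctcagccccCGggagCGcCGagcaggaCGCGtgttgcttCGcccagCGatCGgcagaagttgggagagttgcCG

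The pair from Kdm4c, a demethylase of H3K9 and H3K36, shows the contrast inside a gene. Its 5′ start has no CpG in 300 bases and no peak in F1PBS, while the start 9382 bp further along has 28 and carried the best peak in both lists (33 and 22 fragments). In F1OVA a narrow peak of 162 bp with a −log10 q of 6.00 was listed 734 bp from the 5′ start. Hdac7 showed the same arrangement, with 6 CpG and no peak at its 5′ start, 5 CpG and no peak at its most downstream start, and 35 and 31 CpG at the starts between them, which were marked in both lists.

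Over all members' promoters, the 46 starts marked in both lists had a median of 24 CpG, the same as the 7956 such starts of all genes. The 5 starts marked in F1PBS alone had a median of 16 (13 at Kdm4a to 29 at Setd4), against 19 over 1762 starts of all genes. The 10 starts with no peak in either list had a median of 5.5, against 4 over 9344 starts. Of 9 member starts with at most 6 CpG, 1 was marked in F1PBS, against 8.04% of such starts of all genes. All 5 with 7 to 14 CpG were marked, against 45.2%. Of 23 with 15 to 24 CpG, 22 were marked (77.9% of all such starts), and of 25 with 25 or more, 23 (84.9%). In F1OVA the members' counts over these 4 ranges were 2, 4, 19 and 22, against 5.70%, 33.4%, 63.4% and 74.98% of all starts.

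Prmt8 stood apart from this order, with 43 and 44 CpG at a pair of starts 4 bases apart and no peak in either list. Hdac9 lay at the other end, with 0 and 3 CpG at its starts. Prmt3, whose peak was listed in F1PBS alone, had 24 CpG, the median of starts marked in both lists.

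**Figure D2:**
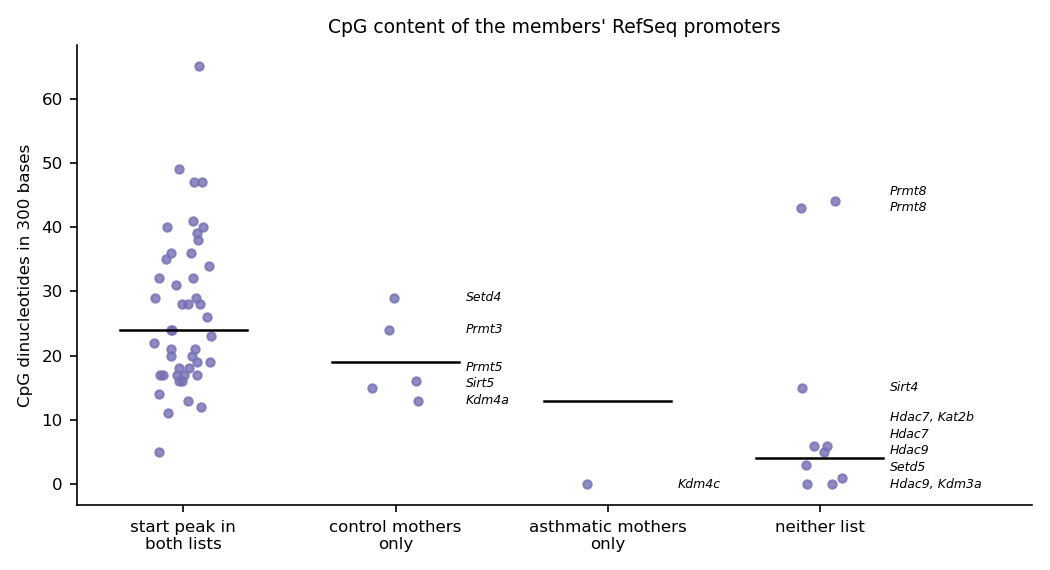
CpG dinucleotides in each of 62 RefSeq promoters (300 bases) of 44 members, by whether a peak lay within 1000 bp of that start in both lists, in offspring of control mothers alone, in offspring of asthmatic mothers alone or in neither. Points are starts, spread sideways for legibility and named outside the first column, and black lines are the medians over all autosomal protein-coding genes, 24, 19, 13 and 4. The starts without a peak in either list hold 0 to 15 CpG, except for Prmt8 with 43 and 44.

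Short motifs were searched on both strands of the same promoters, as letters in the window and not as bound sites. The ETS core CCGGAAG was in 13 of 62 member promoters (21.0%), against 12.1% of all 19150 promoters and 21.1% of those marked in F1PBS. The GC box GGGCGG was in 38 (61.3%, against 48.3% and 69.8%) and CCAAT in 25 (40.3%, against 37.5% and 37.7%). The letters TATAAA were in 2, at Hdac9 and Prmt2 (3.23%, against 12.2% and 5.39%). AGAACA, a half-site of the glucocorticoid receptor, was in 9 (14.5%, against 15.7% and 10.3%), at Hdac9, Hdac11, Kat2a, Kat2b, Kdm5b, Prmt1, Prmt6 and Sirt4. TGACGTCA was in 1, GCGCATGCG in 2, CACGTG in 6 and AAGATGGCG in none, against 2.36%, 2.47%, 8.03% and 1.91% of all promoters.

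The demethylases that act on H3K4 were marked in both lists. Kdm5b, which removes H3K4me3, held 43 fragments in F1PBS (exact Poisson 95% interval 31.1 to 57.9), the most of any member, and 24 in F1OVA (15.4 to 35.7). Kdm5a, its close relative, held 31 and 28 (18.6 to 40.5), and its rank was 66.1 and 99.0 percentile points, the latter the highest of any member in F1OVA. Its start lies 84 bp from that of Ccdc77. Kdm1a (LSD1), which removes mono- and dimethyl groups from H3K4, held 33 and 22 fragments at ranks of 87.7 and 90.7. Kdm1b, its paralogue, held 27 and 15, at 68.4 and 45.5. Kdm2b, which recruits a Polycomb complex to CpG islands, held 22 and 15, at 29.8 and 17.1. These values come from different starts of Kdm2b, with the best peak at chr5:122899561-122900508 in F1PBS and at chr5:122989323-122989525 in F1OVA. In F1OVA the peak at the former start had a −log10 q of 3.185. The median gene held 26 fragments in F1PBS and 17 in F1OVA.

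Several demethylase genes carried the mark at more than 1 start. The 13 annotated starts of Kdm2a, a demethylase of H3K36, fall into 7 groups more than 1000 bp apart, of which 3 were marked in both lists. In Kdm2b 3 of 10 groups were marked in F1PBS and 2 in F1OVA. In Kdm4c 1 and 2 of 3 groups were marked. Outside this class, Hdac5, a class IIa deacetylase, had 2 of 3 groups marked in F1PBS and 1 in F1OVA. The other marked members had 1 marked group in each list where they had a start peak.

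The class I deacetylases, the catalytic subunits of the large corepressor complexes, covered most of the range. Hdac2 held 31 and 23 fragments (ranks 77.4 and 94.2) and Hdac1, which shares its complexes, 25 and 16 (54.9 and 52.8). Hdac3, the deacetylase of the NCoR and SMRT corepressors, held 17 and 11 (8.09 and 1.75), the lowest rank of any member in F1OVA. Its start lies 63 bp from that of Rell2. Kdm4b, Prmt5, Sirt1 and Sirt5 were the other members low in rank in F1PBS, with −log10 q of 6.63, 6.85, 7.39 and 8.68. The highest values there were 21.2 at Prmt9, 21.05 at Kdm5b, 20.8 at Kat14, 20.7 at Kdm1a and 20.4 at Prmt1.

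Ranks shifted between the lists by -64.9 to 61.4 percentile points. Of 44 members 20 ranked higher in F1OVA (45.5%, against 42.3% of the 8968 genes), and the median shift was -4.22 points, against -4.60 for all. Upward shifts were widest at Setd7 (26.4 to 87.8), which can monomethylate H3K4, Setd3 (34.7 to 94.3), an actin histidine methyltransferase, and Setd5 (32.3 to 90.9), a chromatin regulator. Hdac7, a class IIa deacetylase of lymphocytes, followed with 43.7 to 81.2 and Kat8 (MOF), which acetylates H4K16, with 41.1 to 76.1. All 5 ranked higher in F1OVA with fewer fragments. Setd7 held 28 and 24, Setd3 26 and 25, Setd5 29 and 23, Hdac7 27 and 23 and Kat8 21 and 18, where the median gene had 26 and 17. The start of Setd3 is one of those shared with a neighbour, Ccnk.

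Downward shifts were widest at Prmt2 (71.7 to 6.78), a coactivator of nuclear receptors, Kdm3a (75.5 to 22.5), a demethylase of H3K9, Kat6b (72.2 to 28.0), an acetyltransferase of H3K23, Prmt9 (89.5 to 45.5), which methylates a splicing factor, and Prmt1 (86.6 to 51.3), the main enzyme for asymmetric arginine methylation. Prmt2 held 26 and 11 fragments, Kdm3a 29 and 13, Kat6b 32 and 16, Prmt9 31 and 15 and Prmt1 33 and 17. Their solved backgrounds were 1.98 and 1.57 at Prmt2, 2.47 and 1.57 at Kdm3a and 3.36 and 2.26 at Kat6b. At Prmt9 they were 2.20 and 1.57 and at Prmt1 2.79 and 1.95. The part of the background in the shifts up or down was not tested. The middle 90% of all genes shifted by -56.2 to 42.9 points, a range that Setd7, Setd3, Setd5 and Prmt2 left. How far a gene can shift depends on its rank in F1PBS. Among genes marked in both lists and within 5 points of the same F1PBS rank, 1.28% shifted up as far as Setd3. The share was 1.74% for Kdm5a, 2.97% for Setd5, 3.23% for Setd7 and 6.76% for Hdac2. It was 9.5% for Hdac5, 11.2% for Hdac7 and 14.2% for Kat8. Of such genes 3.67% shifted down as far as Prmt2, 8.52% as far as Hdac3 and 10.7% as far as Setd4. The share was 14.1% for Kdm3a, 18.8% for Kat6b, 23.65% for Prmt9 and 30.4% for Prmt1.

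By class, all 5 arginine methyltransferases marked in both lists ranked lower in F1OVA, by 11.5 to 64.9 points, with a median shift of -35.3. Of the 6 SET domain genes 4 ranked higher and 2 lower, with a median of 35.4 and a range of -15.7 to 61.4. The median shift was 4.03 for the 8 acetyltransferases, 0.29 for 5 sirtuins, -2.10 for 7 zinc-dependent deacetylases and -10.4 for 13 demethylases, with members of both signs in each. At 3 of the 44 members, Setd4, Kdm2a and Kdm2b, the best peaks of the lists lay at different groups of starts, the groups being more than 1000 bp apart. Within a group the start nearest to the summit differed at Kat6b, Kdm1a, Prmt7, Setd6, Sirt3 and Sirt6. Without the 3 members the median shift was -2.10 for 41 members, 58.5 for 5 SET domain genes and -10.4 for 11 demethylases. Summed over the class, the arginine methyltransferases had 141 and 72 fragments, a ratio of 0.51 (exact conditional binomial 95% interval 0.38 to 0.68), and the SET domain genes 162 and 121, a ratio of 0.75 (0.59 to 0.95). Both intervals take in the 0.61 of the median gene. These sums hold the members marked in both lists, so that Prmt3 and Prmt5 are not in them, and the difference between the classes was not tested.

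**Figure D3:**
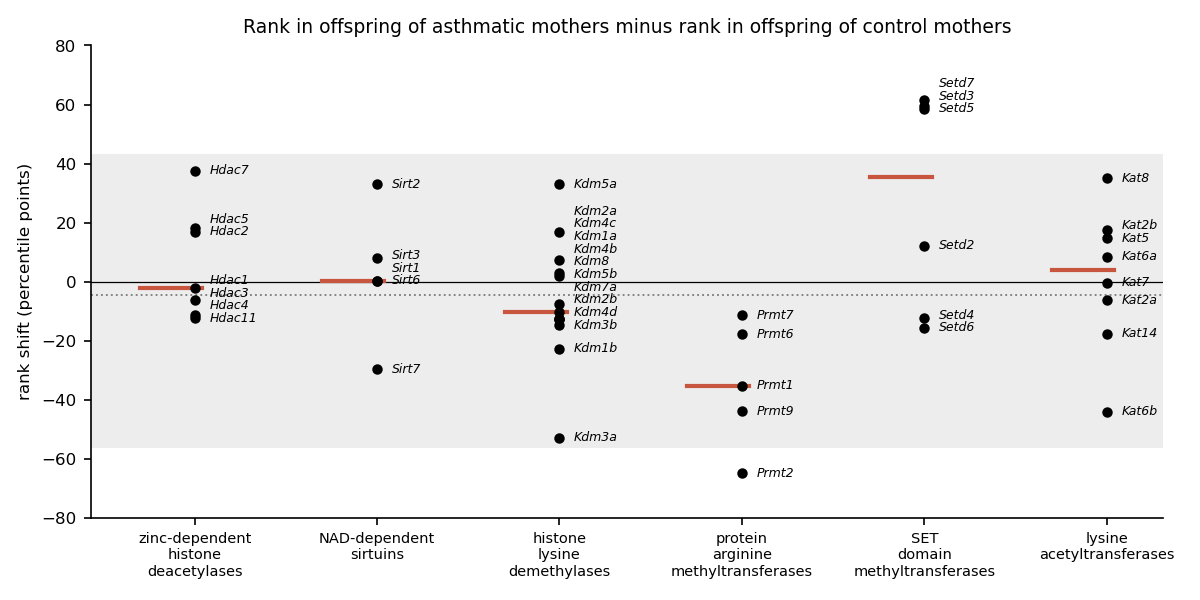
Rank shift of the 44 members marked in both lists, in percentile points of −log10 q within each list, offspring of asthmatic mothers minus offspring of control mothers, by enzyme class. Points are genes with their names beside or just above them, red bars class medians, the grey band the middle 90% of all 8968 genes and the dotted line their median, -4.60. The 5 arginine methyltransferases all lie below 0, and Setd3, Setd5 and Setd7 lie above the band.

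Marked domains at the members, with peaks at most 1000 bp apart joined, had a median width of 820 bp in F1PBS (95% interval of the median 636 to 1074 bp) and 506.5 bp in F1OVA (367 to 713 bp). Over all marked genes the medians were 667 and 410 bp, with intervals of 660 to 676 bp and 403 to 417 bp. The interval of the members took in the value of all genes in both lists. In F1PBS 10 of 49 members were at or above the 90th percentile of width among marked genes, and in F1OVA 11 of 44. Domains were narrower in F1OVA for 42 of 44 members, and for 92.3% of all genes, with median ratios of 0.72 and 0.66. The smallest peak was 190 and 156 bp wide in the lists, and the part of this difference in the narrower domains was not tested.

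The widest domains in F1PBS were at Setd5 (1947 bp), Setd3 (1881 bp), Kdm7a (1636 bp), a demethylase of H3K9 and H3K27, Kdm2a (1605 bp) and Kat6a (1540 bp), an acetyltransferase needed in blood stem cells. In F1OVA these genes had domains of 893, 1381, 901, 1542 and 775 bp. Kdm2a was thus nearly as wide in F1OVA, while Kat6a, with 34 and 24 fragments at its summit, was not. The widest in F1OVA were the joined peaks beyond the 3′ end of Setd4 (1647 bp) and then Kdm2a, Setd3, Kdm2b (1356 bp) and Kat6b (1299 bp). At Kat6b, which ranked 72.2 and 28.0, the domains were 1361 and 1299 bp wide.

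The narrowest domains were at Hdac4 (244 and 190 bp), a class IIa deacetylase, Kdm8 (252 and 181 bp), a JmjC protein with protease and hydroxylase activity, Setd4 in F1PBS (291 bp) and Kdm4b in F1OVA (241 bp). Hdac4 and Kdm8 still held 28 and 26 fragments in F1PBS, near the median.

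**Figure D4:**
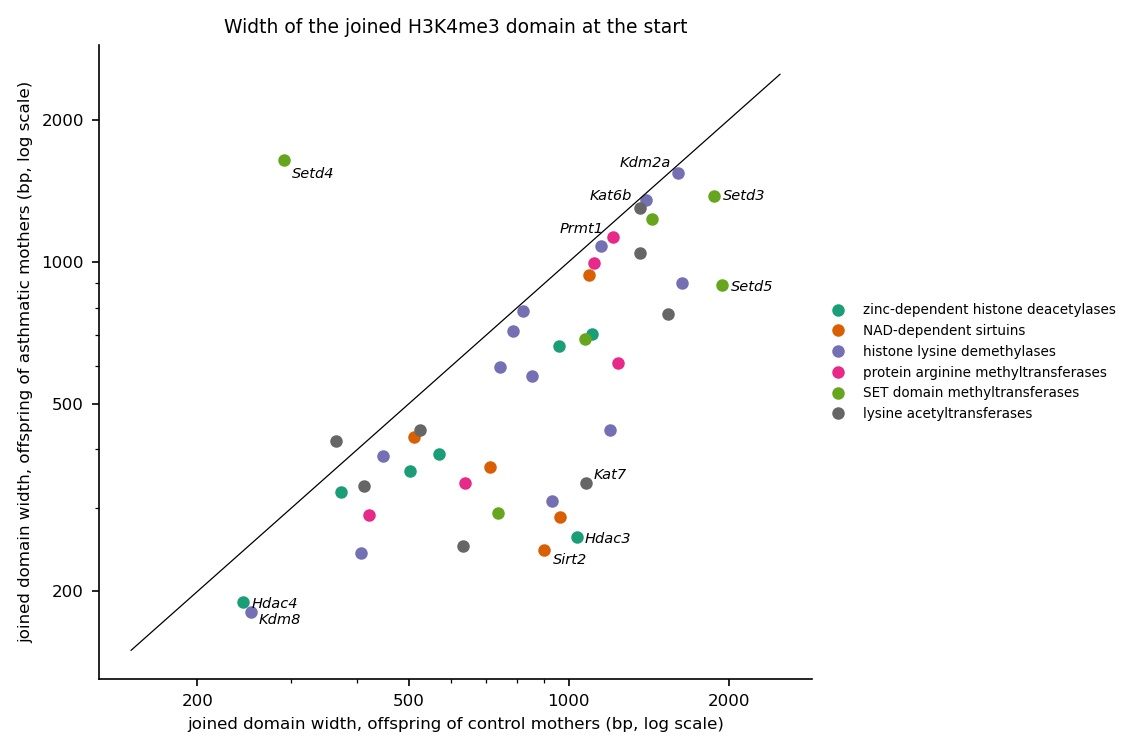
Width of the joined H3K4me3 domain at a start for the 44 members marked in both lists, offspring of control mothers on the horizontal axis and offspring of asthmatic mothers on the vertical axis, both in bp on log scales. Points are genes coloured by class and the line marks equal widths. Of the 44 points 42 lie below the line, and Setd4, at 291 and 1647 bp, lies far above it.

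Summits lay a median of 106 bp downstream of the nearest annotated start in F1PBS (95% interval 77 to 170 bp) and 119 bp in F1OVA (58 to 193 bp), against 114 and 109 bp over all genes. In F1PBS 41 of 49 were downstream of the nearest start, against 75.4% of all genes, and in F1OVA 35 of 44, against 74.8%. In F1PBS 21 of 49 summits were in an intron, 11 in coding bases and 12 in noncoding bases of an exon 1, and 5 upstream of the gene, at Hdac3, Kdm4d, Setd7, Sirt2 and Sirt3. At Setd7 the summit moved from 62 bp upstream of a start to 636 bp downstream within a domain of 1074 and 685 bp, and at Kat2b (PCAF), a coactivator acetyltransferase, from 377 to 1012 bp downstream within 1363 and 1043 bp.

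The sirtuins and acetyltransferases that remain spanned 17 to 33 fragments in F1PBS and 12 to 20 in F1OVA. The nuclear sirtuins Sirt1, Sirt6 and Sirt7 held 17, 20 and 32 fragments in F1PBS and 12, 14 and 16 in F1OVA. Sirt2, a cytoplasmic tubulin deacetylase, held 26 and 20 and the mitochondrial Sirt3 27 and 18, both at a start shared with a neighbouring gene. Of the acetyltransferases, Kat2a (GCN5) held 23 and 15, Kat5 (TIP60) 26 and 18, Kat7 (HBO1) 33 and 20 and Kat14, a subunit of the ATAC complex, 32 and 19. The members not described singly, Hdac11, Kdm3b, Kdm4d, Prmt6, Prmt7, Setd2 and Setd6, held 22 to 35 fragments in F1PBS and 13 to 20 in F1OVA.

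Most genes of the complexes in which these enzymes work were also marked. Of 29 subunits of acetyltransferase complexes 28 had a start peak in F1PBS (96.6%) and 26 in F1OVA (89.7%). Ing3 and Taf5l were marked in F1PBS alone and Sgf29 in neither list. Of 23 subunits of deacetylase corepressor complexes 23 (100%) and 22 (95.7%) were marked, with Rcor2, a CoREST protein whose −log10 q was 3.81, in F1PBS alone. Of 26 other histone modifiers, among them Crebbp, Ep300 and Ezh1, 26 (100%) and 25 (96.2%) were marked, and Smyd3 was the exception. The enzymes stood at 92.5% and 83.0% and all genes at 52.5% and 43.7%, and the differences between these lists were not tested.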

How the data were processed

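Peak lists of H3K4me3 CATCH-seq were used, 1 library per group. Per the labels and the study's methods, the authors trimmed reads with Trim Galore and cutadapt, aligned them to mm10 (GRCm38) with Bowtie2 and removed duplicates. The peak caller and its threshold are not given in the sources used here. The study's methods kept part of each lysate for an input library, and its reporting summary states that peaks were not called on the ChIP-seq data. How these lists were made, and whether an input was used, is thus not known here. The deposited lists give each peak a score, a fold (ratio of summit to background) and, as −log10, a p-value and a q-value. The score repeats the −log10 q, multiplied by 10 and without its decimals, at 99.98% of F1PBS and 100% of F1OVA peaks.

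Peaks within 1000 bp of a transcript start (GENCODE vM21, protein-coding genes) were counted. Fragments were solved from the deposited fold and −log10 p with a Poisson model and a pseudocount of 1, assuming no input. This was done for the best start peak of each gene and 2000 peaks drawn from each list (12917 and 11100 in all), and a whole number gave the deposited −log10 p to within 0.001 for 100% of them. Folds and −log10 q were ranked within a list. The members were taken by symbol with no measured value in the rule, but this rule, the gene lists, markers, motifs and comparisons were chosen with earlier results of these data known. Named genes are those with a start peak in 1 list or none, the 5 highest and lowest by −log10 q in F1PBS, the 5 widest and 3 narrowest domains of either list, the 5 largest rank shifts each way, genes with several marked starts or a shared start, the H3K4 demethylases and the class I deacetylases. Other members were named after their values were seen. The caller's threshold left 49 and 44 of 53 members, and no other filter on low values was used. With 1 library per group no test was made. The overlaps, domains and solved fragments were tested on simulated data. Tools were Python 3.11.15, SciPy 1.17.1, NumPy 2.4.6, Matplotlib 3.10.9 and pandas 2.3.3.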

Additional observations from a re-analysis of the deposited data

How the results depend on the processing

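Values are given for F1PBS first. With the 10000 peaks of highest −log10 p, 35 and 15 members had a start peak (33.8% and 9.82% of all genes), 23 in F1PBS alone and 3, namely Setd3, Setd5 and Setd7, in F1OVA alone. With a −log10 q of at least 5, 49 and 39 were marked (51.1% and 39.1% of all genes). Those in F1PBS alone were then 10, Hdac3, Kdm4b, Prmt2, Prmt7 and Setd4 having joined. With the 5′ end of each gene alone, 1 member (Kdm4c) was marked in F1OVA alone. The share of all genes marked in 1 list alone was not worked out for these settings. The counts of members in 1 list alone therefore cannot be set against genes in general. Without joining, median domain widths were 571 and 365.5 bp. The cause was not tested beyond the fewer peaks, starts or joins of these settings. Without the 3 members whose best peaks lay at different groups of starts, the median rank shift was -2.10 (-4.22 with them), and for the SET domain genes 58.5 (35.4). Of 111 values under alternative settings 94 stayed within their limits, among them those for 500 and 2000 bp. Leaving out members that share a start, summits copied in the genome, or members with best peaks at different groups of starts, was chosen after seeing the data. The fragments per summit (medians of 27 and 17 over marked members) set the counting error of each ratio. No paired analysis was possible because each group had a single library.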
